A study of Mus musculus with 16 samples.

Results

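Hepatokines are proteins that liver cells release and that act on other tissues or on the liver itself. The genes described here encode 8 of them: Inhbe, Inhba, Fst, Fgf21, Gdf15, Nrg4, Angptl4 and Angptl8. They were taken by gene symbol from the 55450 genes of an expression table of primary mouse hepatocytes, in which each symbol had exactly 1 gene. The members were chosen on earlier results from these same libraries, and which values led to the choice is not recorded. The tests below therefore describe the members and are not independent evidence that they respond.

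Hepatocytes were isolated from livers of wild-type mice by perfusion and low-speed centrifugation, and the study's methods give male C57BL/6J mice aged 8 to 12 weeks for its animals. All cells were kept overnight in DMEM with 5% serum and an insulin-transferrin-selenium supplement, so every group, the untreated cells included, was exposed to insulin. The 4 groups were untreated cells, cells given 10 mM sodium itaconate, cells given a lipid mixture diluted 10-fold, and cells given both, called lipid + itaconate. The mixture holds arachidonic, linoleic, myristic, oleic, palmitic and stearic acids together with cholesterol, so fatty acid and sterol cannot be told apart in it, and the labels name no vehicle or sodium salt control. Itaconate is a dicarboxylic acid that activated macrophages make from a tricarboxylic acid cycle intermediate, and the study asked what it does to hepatocytes loaded with lipid.

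Each group had 4 poly(A) RNA-seq libraries with the letters A to D. Libraries sharing a letter deviated together, and the letter was a term of the fit. P-values therefore measure the spread left between these libraries once treatment and letter are taken out, except where the letter is said to be left out. The labels do not say whether a letter is a separate animal, culture or day, so that spread may be technical. Library totals ran from 22346049 to 35512004 estimated reads. The library of lipid + itaconate replicate B stood apart from the rest of its group, with a chi-square per gene of 106 to 147 against its group mates where the other 21 within-group pairs gave 10.0 to 64.5. Some results that use it are also given without it, but not all. Ranges over alternatives for comparisons that use it include leaving it out. Albumin, the main secreted protein of hepatocytes, averaged 30900 to 35900 CPM, reads scaled to a common library total, in the 4 groups, and all 8 hepatocyte markers examined were detected in every group.

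The 8 proteins work in different ways. INHBE and INHBA are activin subunits, ligands of the TGF-beta family that signal through type I and type II receptors to SMAD2 and SMAD3, and follistatin (FST) binds activins and keeps them from their receptors. FGF21 and GDF15 are hormones induced by metabolic and cellular stress: FGF21 signals through FGF receptors with the co-receptor beta-Klotho, and GDF15 through GFRAL with RET in the hindbrain. NRG4 is a ligand of the EGF family for the receptor ERBB4. ANGPTL4 and ANGPTL8 restrain lipoprotein lipase, the enzyme that frees fatty acids from circulating triglyceride.

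Sequences before the transcription start were read from RefSeq's table for GRCm38.p6, with a window for 6 of the 8 genes, all but Angptl4 and Fst. Each window of 300 bases covers 250 bases before the start and 50 from it on. An exact search on both strands for the C/EBP-ATF response element TGATGNAA, a site type bound by the stress factor ATF4 with a C/EBP partner, matched in Inhbe, Fgf21 and Angptl8. The 3 stretches are shown because they hold the match, in the orientation of the plus strand, with the matched bases in capitals. These members also had the largest fitted rises after lipid, and whether the element has a part in that was not tested. The stretches are chr10:127352011-127352040 for Inhbe, chr7:45615611-45615640 for Fgf21 and chr9:21835369-21835398 for Angptl8.
Inhbe: gtggacatgcaTGATGCAAgaaagaggatg
Fgf21: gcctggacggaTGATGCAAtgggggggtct
Angptl8: agccatcagtcTGATGCAAtggctgagcct

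All 3 matches had the same 8 letters. Inhbe and Fgf21 lie on the minus strand, so the element ran opposite to those genes and along Angptl8. Counted from -1 for the base before the RefSeq start, it covered -181 to -174 in Inhbe, -139 to -132 in Fgf21 and -130 to -123 in Angptl8. Of all 32851 RefSeq windows, 3.97% held TGATGNAA, and so did 4.51% of the 27025 genes with a window. A match is a run of letters and not a measured binding site. The RefSeq start of Inhbe lies 2563 bases inside the first exon that GENCODE annotates, so its window may not be the promoter used in these cells.

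Whole stretches of 250 bases before the start are given for Fgf21 and Angptl8, whose RefSeq and GENCODE starts coincide. Fgf21 is written along the gene, on the minus strand of chr7:45615491-45615740, and Angptl8 on the plus strand of chr9:21835260-21835509. Capitals mark the C/EBP-ATF element, which reads TTGCATCA along Fgf21, and the E-box CACGTG.
Fgf21: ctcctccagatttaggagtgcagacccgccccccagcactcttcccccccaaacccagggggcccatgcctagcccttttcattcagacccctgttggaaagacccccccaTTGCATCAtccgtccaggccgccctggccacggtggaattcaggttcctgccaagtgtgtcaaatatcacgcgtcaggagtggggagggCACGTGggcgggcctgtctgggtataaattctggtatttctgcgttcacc
Angptl8: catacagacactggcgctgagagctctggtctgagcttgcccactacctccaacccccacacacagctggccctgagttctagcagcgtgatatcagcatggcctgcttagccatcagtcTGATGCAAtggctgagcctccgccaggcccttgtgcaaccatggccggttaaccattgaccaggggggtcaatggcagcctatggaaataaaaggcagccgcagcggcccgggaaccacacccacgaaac

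The E-box lay at -50 to -45 in Fgf21 and at -83 to -78 before the inner of the 2 RefSeq starts of Gdf15, and 7.15% of all windows held one. No motif overlapped another. A direct repeat of AGGTCA with 1 base between the copies, the DR1 to which PPAR alpha binds, was found in none of the 6 members' windows and in 0.0396% of all windows, which says only that these exact letters are not in these windows. The windows of Inhba and Nrg4 matched none of the 3 motifs. The RefSeq start of Nrg4 lies 43219 bases inside the first base that GENCODE annotates, so its window, too, may not be the promoter used in these cells.

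Of the 8 members, 7 averaged 1 CPM or more across all libraries and were among the 11675 genes tested, and each of the 7 was above 1 CPM in every library. Fgf21 had a mean of 0.962 CPM and 11 to 48 reads per library, and its values come from the same model fitted with no filter to the 25152 genes with at least 1 read. Adjusted p-values are from edgeR's quasi-likelihood test with Benjamini-Hochberg adjustment over all genes of its fit, except where DESeq2 is named and in ranges over alternatives, which include limma-trend and DESeq2. A log2 fold change is a fitted difference in level, and values in CPM are levels within a gene across libraries.

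Levels of different genes were compared per length, in TPM, the length-scaled share of transcripts. The length was that of all annotated exons of a gene, 6075 bases over 13 transcripts for Nrg4 and 5319 bases for Inhbe. Where cells use shorter transcripts the level is understated, so the order of genes depends on the length taken. In untreated cells Angptl4 was highest at 94.9 ± 8.99 TPM (SD, n = 4), followed by Gdf15 at 79.8 ± 7.55, Inhba at 73.3 ± 7.90, Fst at 69.2 ± 6.34 and Angptl8 at 56.0 ± 11.9. The ranges of these neighbours overlapped at each step, so the ranges alone did not resolve their order. Within every untreated library, though, Angptl4 was above Gdf15, Gdf15 above Inhba and Inhba above Fst. Fst was above Angptl8 in all but library A, at 70.7 and 70.8 TPM. Nrg4, at 14.4 ± 3.07 TPM, was apart from the genes above and below it. Inhbe at 1.72 ± 0.0807 TPM and Fgf21 at 1.66 ± 0.613 TPM were lowest and overlapped each other.

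With lipid the order changed. Angptl8 was then highest at 135 ± 13.1 TPM, with no library below 122, and Inhba followed at 96.7 ± 3.56 and Gdf15 at 83.6 ± 4.99, each range clear of the next. Angptl4 stood at 49.6 ± 5.77 TPM beside Fst at 61.1 ± 11.9, with overlapping ranges, though Fst was the higher within every lipid library. Nrg4 at 7.91 ± 2.60, Inhbe at 6.08 ± 1.41 and Fgf21 at 3.80 ± 1.21 TPM formed the low end, each overlapping its neighbour. Within every lipid library Inhbe was above Fgf21, while Nrg4 was above Inhbe in all but library D. In lipid + itaconate cells Angptl8 spread from 71.1 to 192 TPM and overlapped Inhba.

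**Figure D1:**
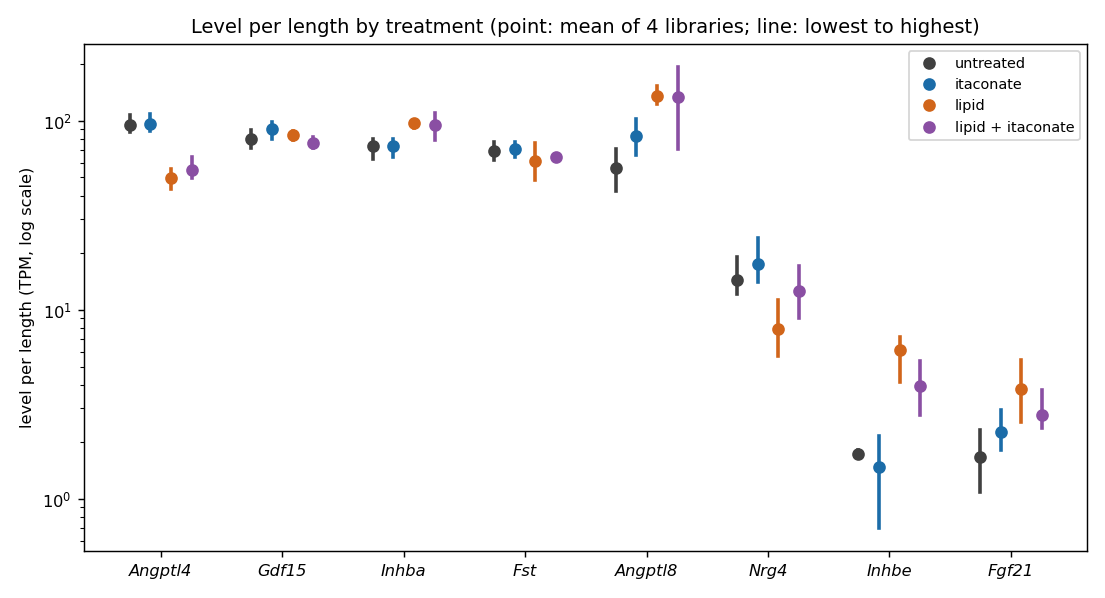
Level per length of the 8 genes in TPM on a log axis, by treatment, with points for the mean of 4 libraries and lines from the lowest to the highest library. Angptl8 moved from 56.0 TPM in untreated to 135 TPM in lipid-treated cells, while Angptl4 moved from 94.9 to 49.6 TPM.

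The first comparison was lipid against untreated. Inhbe, Angptl8 and Inhba rose, Angptl4, Nrg4 and Fst fell, and Gdf15 did not pass the test. That is 6 of the 7 members tested, where 47.5% of all genes tested passed in this comparison, with 23.8% of all genes higher and 23.7% lower. In 5 of the 7 members the lipid and untreated libraries did not overlap, as in 32.5% of all genes. The median log2 fold change of the 7 was -0.01 beside 0.005 over all genes.

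Inhbe (ENSMUSG00000047492.5, chr10:127348857-127354411 on the minus strand of GRCm38) encodes the subunit of activin E, which hepatocytes secrete. Its level in untreated libraries A to D was 3.65, 3.54, 3.73 and 3.32 CPM. With lipid it was 14.3, 13.7, 8.03 and 11.7 CPM. Every lipid library was thus above every untreated one, with C the lowest of its group. The fitted change was 1.72 on the log2 scale (SE 0.25, 95% interval 1.20 to 2.25), a 3.30-fold rise with an adjusted p of 4.42e-05, and it was the largest among the members.

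With itaconate present the lipid mixture gave the same direction. Inhbe was 4.71, 3.18, 1.47 and 3.23 CPM in itaconate libraries A to D. In lipid + itaconate libraries it was 6.69, 6.20, 10.6 and 8.84 CPM. The groups did not overlap, and the C library, lowest of the itaconate group, was the highest of the lipid + itaconate group. The fitted rise was 1.39 on the log2 scale (SE 0.25, adjusted p = 4.08e-04), or 2.62-fold.

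Itaconate on top of lipid gave lower Inhbe in 3 of 4 letters. The log2 differences were -1.09, -1.14, 0.40 and -0.40 in letters A to D, and the fitted value was -0.53 (SE 0.23, 95% interval -1.02 to -0.05). Its adjusted p was 0.239, so the difference did not pass. Without the lipid + itaconate library of replicate C the value was -0.84 with an adjusted p of 0.0153, and over all alternatives the adjusted p ran from 3.83e-04, with no filter, to 0.602. Without replicate B of the same group it was -0.39, adjusted p = 0.478. Itaconate alone gave -0.20 (SE 0.27, adjusted p = 0.709), with letter C at -1.33 and A at 0.36.

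Inhba (ENSMUSG00000041324.14, chr13:16011851-16031621 on the plus strand of GRCm38) encodes the subunit of activin A. It was 204, 197, 155 and 174 CPM in untreated libraries A to D and 221, 232, 229 and 228 CPM with lipid. The lipid libraries lay close together and above all untreated ones. The rise was 25.3% (log2 fold change 0.33, SE 0.082, adjusted p = 0.00402). Itaconate libraries held 210, 201, 173 and 163 CPM and lipid + itaconate libraries 240, 213, 261 and 222 CPM, a rise of 25.9% with an adjusted p of 0.00361 and again no overlap. Itaconate itself gave 0.03 without lipid (adjusted p = 0.845) and 0.04 with it (adjusted p = 0.838).

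Fst (ENSMUSG00000021765.9, chr13:114452290-114458951 on the minus strand of GRCm38) encodes follistatin, which neutralises activins, and went the other way. Its untreated libraries A to D held 132, 135, 109 and 118 CPM and its lipid libraries 110, 127, 81.4 and 94.5 CPM. The groups overlapped because letters A and B were higher than C and D in both, yet each letter was lower with lipid. Fst fell by 16.8% (log2 fold change -0.27, SE 0.063, adjusted p = 0.00263), and over its alternatives the adjusted p ran from 2.34e-05 to 0.0842, the last without the letter in the model. Between lipid + itaconate cells, at 117, 119, 109 and 114 CPM, and itaconate cells, at 147, 138, 116 and 121 CPM, Fst fell by 0.18 on the log2 scale (SE 0.062, adjusted p = 0.0254). That call was lost without the letter in the model (adjusted p = 0.205) and without itaconate replicate A (0.0924), itaconate replicate C (0.0656), lipid + itaconate replicate A (0.0929) or lipid + itaconate replicate B (0.0876), and the lowest adjusted p of any alternative was 0.00529.

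**Figure D2:**
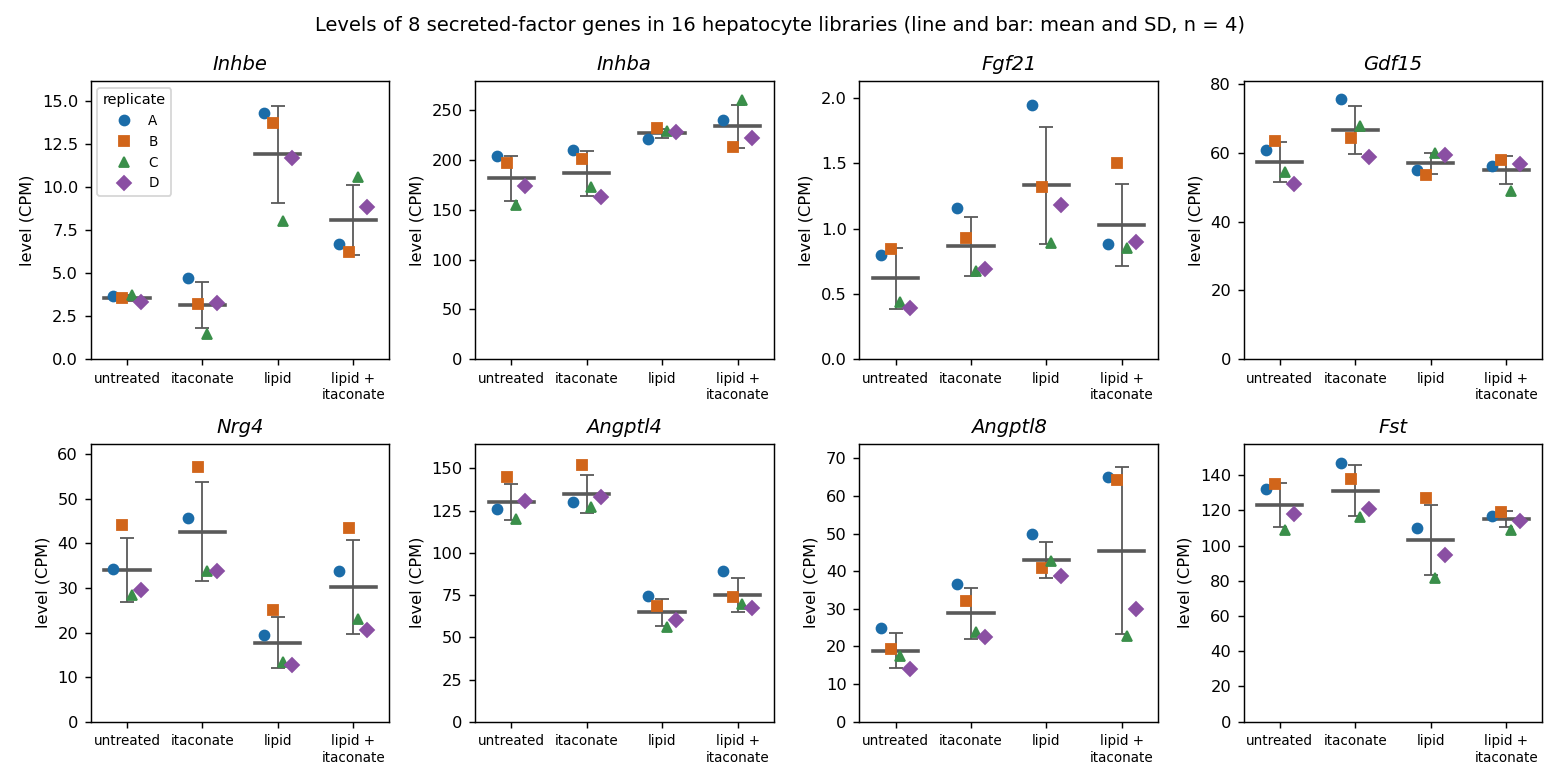
Level of each gene in CPM in every library, by treatment, with symbols for the replicate letters and a line and bar for the mean and SD of 4 libraries. Inhbe, Inhba, Fgf21 and Angptl8 have all lipid libraries above all untreated ones, and Nrg4 and Angptl4 have all of them below.

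Fgf21 (ENSMUSG00000030827.5, chr7:45613886-45615490 on the minus strand of GRCm38), the starvation and stress hormone, was near the limit of detection. Untreated libraries A to D held 17, 24, 12 and 11 reads, or 0.796, 0.842, 0.438 and 0.392 CPM. Lipid libraries held 48, 35, 22 and 35 reads, or 1.95, 1.32, 0.892 and 1.18 CPM. The groups did not overlap, though the highest untreated and the lowest lipid library were 0.842 and 0.892 CPM. In the fit with no filter, where 22.4% of genes passed in this comparison, Fgf21 rose 2.19-fold (log2 fold change 1.13, SE 0.30, adjusted p = 0.00137). Over its alternatives the adjusted p ran from 0.00152 to 0.0226. The fit with no filter gave some other members far smaller adjusted p-values, such as 9.30e-15 in place of 0.0632 for Angptl8 in itaconate against untreated. The adjusted p of Fgf21 is thus not comparable with those of the filtered fit.

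Itaconate libraries held 1.16, 0.924, 0.678 and 0.692 CPM of Fgf21. The level was higher than untreated in 4 of 4 letters, but the difference of 0.51 on the log2 scale (SE 0.31, adjusted p = 0.583) did not pass. Lipid + itaconate libraries held 0.882, 1.50, 0.847 and 0.899 CPM, and 1 library, replicate B, lay well above the other 3. Against itaconate alone the difference was 0.26 (95% interval -0.31 to 0.83, adjusted p = 0.695), and against lipid alone -0.36 (95% interval -0.92 to 0.20, adjusted p = 0.848). At this depth neither was resolved from 0. Without lipid + itaconate replicate B these values were 0.13 (adjusted p = 0.922) and -0.50 (adjusted p = 0.789).

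Gdf15 (ENSMUSG00000038508.7, chr8:70629393-70632456 on the minus strand of GRCm38), the other stress hormone, was well expressed and did not pass the test with lipid. It held 61.0, 63.6, 54.4 and 50.9 CPM in untreated and 55.0, 53.6, 59.9 and 59.5 CPM in lipid libraries A to D. Lipid was lower in A and B and higher in C and D. The fitted difference was -0.01 (95% interval -0.17 to 0.16, adjusted p = 0.955).

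Itaconate libraries held 75.8, 64.3, 67.8 and 59.0 CPM of Gdf15 and lipid + itaconate libraries 56.1, 58.1, 49.0 and 56.7 CPM. All lipid + itaconate libraries lay below all itaconate ones, and Gdf15 fell by 17.5% between them (log2 fold change -0.28, SE 0.077, adjusted p = 0.00808). Itaconate against untreated was higher in 4 of 4 letters at 0.21 (SE 0.077) but did not pass, with an adjusted p of 0.120. Fitted on the libraries of that comparison alone the adjusted p was 0.0101, and over all alternatives it ran from 0.00549, with no filter, to 0.336. The fall with lipid in itaconate cells was not shown to differ from the value in cells without it, since the interaction of lipid and itaconate was -0.27 with an adjusted p of 0.504.

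Nrg4 (ENSMUSG00000032311.17, chr9:55220222-55326844 on the minus strand of GRCm38), the ERBB4 ligand, was the member that passed the test in all 4 pairwise comparisons. In untreated libraries A to D it was 34.3, 44.0, 28.3 and 29.6 CPM. With lipid it was 19.5, 25.0, 13.5 and 12.7 CPM. Every lipid library lay below every untreated one, and in both groups A and B were above C and D. Nrg4 fell by 49.1% (log2 fold change -0.97, SE 0.073, adjusted p = 8.28e-08), with the letters between -0.81 and -1.22.

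Lipid + itaconate libraries held 33.8, 43.5, 23.1 and 20.6 CPM of Nrg4. Against lipid alone that was higher in 4 of 4 letters, by 0.79, 0.80, 0.77 and 0.70 on the log2 scale. Nrg4 thus rose 1.70-fold (log2 fold change 0.77, SE 0.073, 95% interval 0.61 to 0.92, adjusted p = 6.77e-05). Nrg4 alone, 1 of the 7 members tested, passed in this comparison, where 2.58% of all genes passed and 1.32% were higher. The libraries of the 2 groups overlapped, because the letters spanned a wider range than the treatment, and so no member was without overlap here, as against 5.82% of all genes. Without the letter in the model the adjusted p was 0.311 at the same log2 fold change of 0.77, the highest among alternatives that reached down to 3.74e-22. Without lipid + itaconate replicate B the value was 0.72 with an adjusted p of 4.62e-04.

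Relative to the untreated library of the same letter, Nrg4 stood at 42.9% to 57.0% with lipid and at 69.5% to 98.8% with lipid + itaconate. Itaconate libraries held 45.6, 57.1, 33.9 and 33.8 CPM, or 114% to 133%. Nrg4 rose 23.9% with itaconate alone (log2 fold change 0.31, SE 0.069, adjusted p = 0.0180), in 4 of 4 letters. Again 1 of 7 members passed, in a comparison where 4.91% of all genes passed and 1.96% were higher, and no member was without overlap where 7.53% of all genes were. The call did not hold without the letter in the model (adjusted p = 0.615), nor without untreated replicate A (0.0751), untreated replicate B (0.0846), itaconate replicate C (0.0733) or itaconate replicate D (0.0743), and the lowest adjusted p of any alternative was 3.89e-04.

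Lipid lowered Nrg4 in the presence of itaconate too. From itaconate to lipid + itaconate cells Nrg4 fell by 30.1% (log2 fold change -0.52, SE 0.069, adjusted p = 2.86e-05), lower in 4 of 4 letters, and over its alternatives the adjusted p ran from 7.67e-12 to 0.132, the last without the letter in the model. The lipid difference was 0.46 smaller on the log2 scale with itaconate than without it, by 0.38, 0.42, 0.51 and 0.50 in letters A to D. That interaction had a raw p of 3.42e-04 and an adjusted p of 0.174, and over its alternatives the adjusted p ran from 0.00222 to 1.00, with DESeq2 at 0.0274. Nrg4 overlaps Fbxo22 on the opposite strand, and whether reads were assigned by strand is not stated. Fbxo22 was at 95.4 CPM, and its own log2 differences were -0.08 with lipid (adjusted p = 0.204) and 0.12 for lipid + itaconate against lipid (adjusted p = 0.198).

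**Figure D3:**
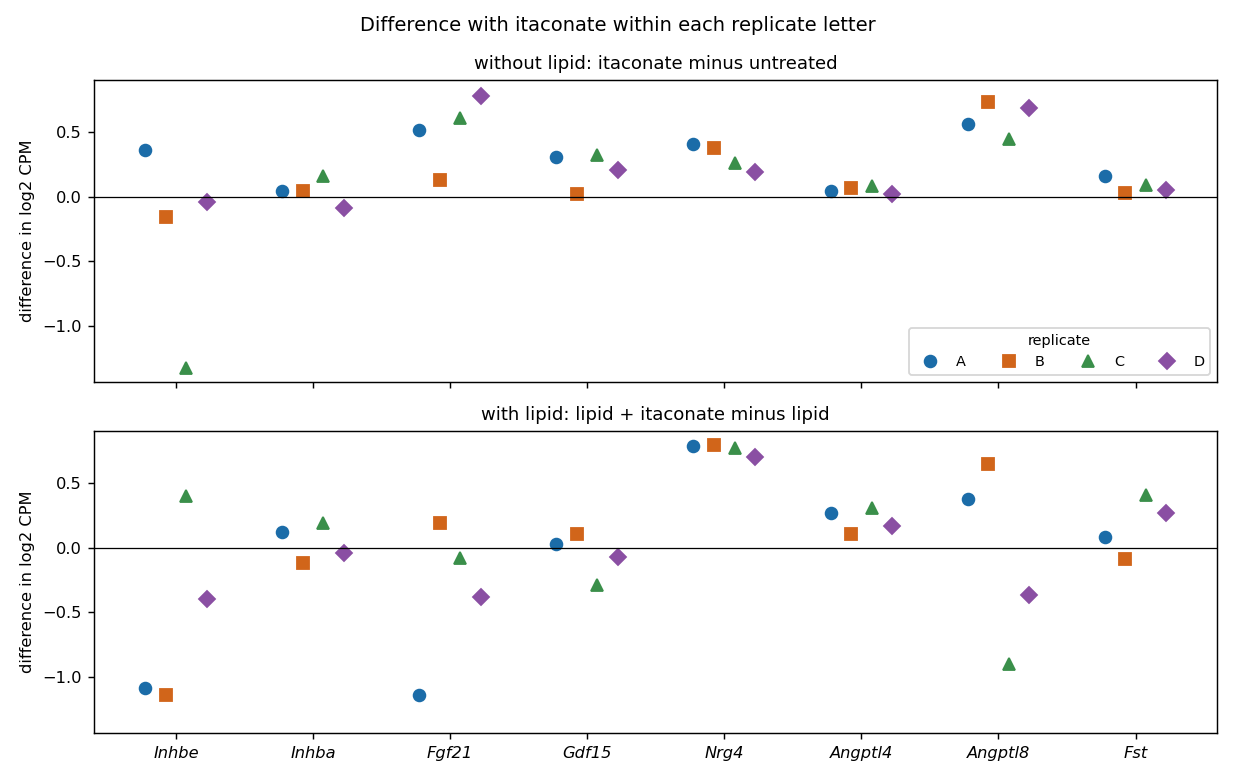
Difference in log2 CPM with itaconate within each replicate letter, without lipid in the upper panel and with lipid in the lower panel, for the 8 genes. Nrg4 with lipid lies between 0.70 and 0.80 in all 4 letters, while Inhbe runs from -1.14 to 0.40 and Angptl8 from -0.90 to 0.65.

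Angptl4 (ENSMUSG00000002289.16, chr17:33773750-33781830 on the minus strand of GRCm38), an inhibitor of lipoprotein lipase and a classical target of PPAR alpha, fell with lipid. Untreated libraries A to D held 126, 145, 120 and 131 CPM, and lipid libraries 74.2, 68.4, 56.3 and 60.0 CPM. The groups did not overlap. Angptl4 fell by 50.6% (log2 fold change -1.02, SE 0.072, adjusted p = 4.47e-08). In itaconate libraries Angptl4 was 130, 152, 127 and 133 CPM and in lipid + itaconate libraries 89.3, 73.8, 69.7 and 67.5 CPM. It fell by 44.7% between them, with an adjusted p of 4.10e-07 and no overlap.

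Lipid + itaconate libraries were above the lipid library of the same letter in 4 of 4 letters, but the difference in Angptl4 of 0.22 (SE 0.072, 95% interval 0.06 to 0.37) had an adjusted p of 0.127. Over its alternatives the adjusted p ran from 0.00537, with no filter, to 0.485. Itaconate without lipid gave 0.05, adjusted p = 0.693. As a share of the untreated library of its letter Angptl4 was 45.9% to 58.9% with lipid and 51.0% to 70.9% with both.

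Angptl8 (ENSMUSG00000047822.8, chr9:21835510-21837347 on the plus strand of GRCm38), whose expression in liver rises with insulin and feeding, rose with lipid. It was 24.9, 19.4, 17.4 and 14.0 CPM in untreated libraries A to D. With lipid it was 49.9, 41.0, 42.6 and 38.8 CPM. The groups were far apart, and Angptl8 rose 2.33-fold (log2 fold change 1.22, SE 0.18, 95% interval 0.85 to 1.60, adjusted p = 4.80e-05). Angptl8 lies within Dock6, which runs on the opposite strand at 6.59 CPM and had a log2 difference of -0.07 with lipid (adjusted p = 0.717).

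Itaconate libraries held 36.7, 32.2, 23.8 and 22.6 CPM of Angptl8, above the untreated library of the same letter by 0.56, 0.73, 0.45 and 0.69 on the log2 scale. The fitted difference was 0.61 (SE 0.18, 95% interval 0.23 to 0.99), or 1.52-fold, but the adjusted p was 0.0632 and it did not pass. Fitted on the libraries of that comparison alone the adjusted p was 1.68e-05, and over all alternatives it ran from 9.30e-15 with no filter to 0.376.

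Lipid + itaconate libraries held 65.0, 64.3, 22.8 and 30.1 CPM of Angptl8. A and B were thus above every lipid library and C and D below every one. The fitted difference from lipid was -0.01 (adjusted p = 0.977), which averages 0.38 and 0.65 in A and B with -0.90 and -0.37 in C and D. Against itaconate Angptl8 rose 1.52-fold (log2 fold change 0.60, SE 0.17, adjusted p = 0.00877), with letters at 0.82, 1.00, -0.06 and 0.41. Over its alternatives the adjusted p ran from 1.25e-16 to 0.0710, the last without the letter in the model, and without lipid + itaconate replicate B the value was 0.40 with an adjusted p of 0.0452.

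In lipid + itaconate against itaconate all 7 members tested passed, where 47.0% of all genes did. Inhbe, Inhba and Angptl8 were higher, in a direction taken by 23.5% of all genes, and Gdf15, Nrg4, Angptl4 and Fst were lower, as were 23.5% of all genes. In 4 of the 7, namely Inhbe, Inhba, Gdf15 and Angptl4, the libraries did not overlap, as in 31.4% of all genes. The median log2 fold change of the 7 was -0.18, beside 0.004 over all genes. Without lipid + itaconate replicate B the count was 6 of 7, with Fst lost, and without the letter in the model it was 4 of 7. The share of all genes under these alternatives is not given here.

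Whether lipid acted differently with and without itaconate was tested by the interaction. In the filtered edgeR fit none of the 7 members passed, and 0.00857% of all genes did. Before adjustment 3 members were under 0.05, namely Nrg4, Angptl8 (log2 value -0.62, adjusted p = 0.497) and Gdf15 (log2 value -0.27, adjusted p = 0.504). DESeq2 called 1 member, Nrg4, and the edgeR fit with no filter called 2, Nrg4 (adjusted p = 0.00222) and Angptl8 (adjusted p = 2.17e-07). The share of all genes that passed the interaction in these fits is not given here. Over all alternatives the interaction of Angptl8 ran from -0.83 to -0.41, with adjusted p from 2.17e-07 to 1.00. For Fgf21, in the fit with no filter, the interaction was -0.87 with a raw p of 0.0390 and an adjusted p of 0.752.

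**Figure D4:**
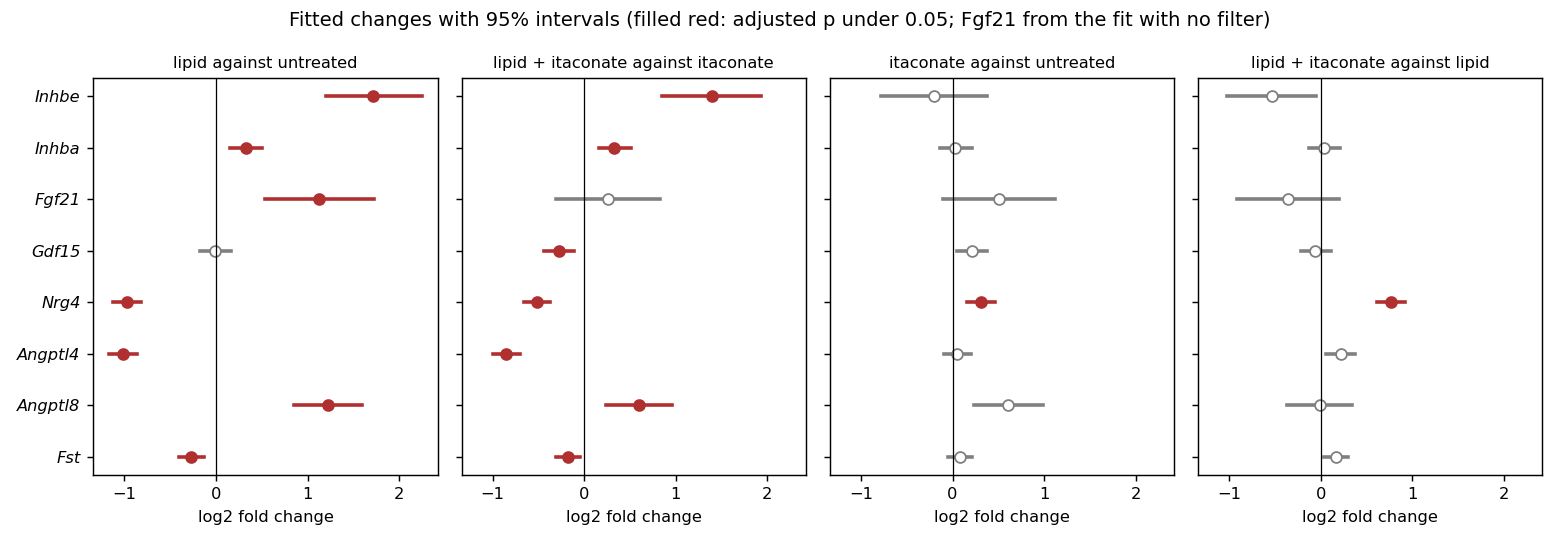
Fitted log2 fold changes of the 8 genes with 95% intervals in the 4 pairwise comparisons, filled where the adjusted p was under 0.05, with Fgf21 from the fit with no filter. The lipid panels hold 7 filled points each, counting Fgf21 on the left, and Nrg4 is the only filled point in each itaconate panel.

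Over the 16 libraries, after the letter means were taken out, Inhbe and Angptl4 had a Pearson correlation of -0.91 on the log2 CPM scale, Inhbe and Nrg4 -0.85, and Nrg4 and Angptl4 0.86. Nrg4 and Fst stood at 0.84, Inhbe and Inhba at 0.79, and Fgf21 and Angptl8 at 0.74. Gdf15 ranged from -0.55 to 0.41 with the others. These values describe genes that share libraries and treatments, and the differences between treatments were left in.

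By the same measure the genes most like Inhbe were Srpk2 (0.985), Sgsh (0.977) and H2-Q1 (0.970), the last of which can share reads with close relatives. Srpk2 is a kinase of splicing factors and Sgsh a lysosomal sulfatase. For Angptl4 they were Nomo1 (0.993), Rnf10 (0.991) and the actin-binding profilin gene Pfn1 (0.986), and for Nrg4 they were Tgoln1 (0.979), Chaf1b (0.966) and the ubiquitin gene Ubb (0.964), whose paralogs share sequence. Angptl8 was most like Stbd1 (0.973), a glycogen-binding protein, St3gal1 (0.969) and Bri3bp (0.961). Fst was closest to Flot2 (0.968), Sec63 (0.961) and Xpo6 (0.959), and Inhba to Zfp184 (0.957), Wdr76 (0.945) and CT030661.1 (0.941). Gdf15 had the weakest top value, with Zbtb21 (0.899), Cyp2c55 (0.882) and Nup54 (0.869).

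Genes that work with the members were taken from 7 lists, described by their counts and without a test of the list, with values for their genes as log2 fold changes. Their counts with lipid are to be read against the 23.8% of all genes that rose and the 23.7% that fell, 47.5% in all. Of 15 activin pathway genes tested, 2 rose and 4 fell with lipid, a smaller share than of all genes, at a median log2 fold change of -0.10 beside 0.00 over all genes. Those that rose were Fstl3, a second activin-binding protein of the follistatin type (1.00, SE 0.27, adjusted p = 0.00629), and the co-receptor Tgfbr3 (0.98, SE 0.23, adjusted p = 0.00283). The largest falls were in the signal carrier Smad3 (-0.48, adjusted p = 2.04e-06), the receptor Acvr1 (-0.27, adjusted p = 0.00285) and Smad4 (-0.18, adjusted p = 0.00464). In itaconate-treated cells lipid raised 1 and lowered 3, with Tgfbr3 at 0.96, Smad3 at -0.46, Smad4 at -0.18 and Smad2 at -0.15. Smad2 passed in 8 of 15 alternatives and had an adjusted p of 0.0745 without the letter in the model.

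Of 16 receptors and partners of FGF21, GDF15 and NRG4, 11 averaged 1 CPM or more and were tested. Gfral and Ret, through which GDF15 signals, and the NRG4 receptor gene Erbb4 were below that level and not tested. Of the 11, 3 rose and 3 fell with lipid, at a median of -0.11. Fgfr1, the receptor that FGF21 uses with beta-Klotho, rose by 0.80 (SE 0.078, adjusted p = 1.16e-06), Fgfr3 by 0.77 (adjusted p = 3.53e-05) and Erbb3 by 0.21 (adjusted p = 0.0467). Nrg1, a sister ligand of Nrg4, fell by 1.16 on the log2 scale (SE 0.11, adjusted p = 1.09e-06), Fgfr4, the main FGF receptor of hepatocytes, by 0.39 (adjusted p = 0.0163) and Egfr by 0.27 (adjusted p = 6.25e-04). Erbb3 and Fgfr4 did not pass without the letter in the model, at 0.118 and 0.0616, and they passed in 7 and 11 of 15 alternatives. With itaconate present 3 rose and 5 fell, among them Fgfr1 at 0.51, Fgfr3 at 0.42, Nrg1 at -1.15, Fgfr4 at -0.58 and the feedback inhibitor Errfi1 at -0.23.

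Of 9 lipoprotein lipase partners tested, 2 rose and 2 fell with lipid, at a median of 0.03. Angptl6 rose by 1.26 (SE 0.14, adjusted p = 5.44e-06) and Apoa5, which promotes lipase action, by 0.75 (SE 0.070, adjusted p = 6.55e-07). Lpl, the lipase itself, fell by 0.88 on the log2 scale (SE 0.11, adjusted p = 9.50e-06). Lipid in itaconate-treated cells again gave 2 of each, with Angptl6 at 0.61, Apoa5 at 0.58 and Lpl at -1.35. Itaconate on top of lipid lowered Angptl6 by 0.56 (adjusted p = 0.0428), but Angptl6 passed in 6 of 15 alternatives, with adjusted p from 2.40e-04 to 0.225.

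Of 24 other liver-secreted factors, 6 rose and 5 fell with lipid, close to the 23.8% and 23.7% of all genes, at a median of 0.03, and 2 rose and 2 fell without the letter in the model. Dpp4, a peptidase shed into plasma, rose by 0.57 (adjusted p = 1.86e-06) and the acute-phase gene Orm2, whose close relatives can share its reads, by 0.31 (adjusted p = 9.70e-04, or 0.0825 without the letter). Manf, a secreted endoplasmic reticulum stress protein, fell by 0.51 on the log2 scale (adjusted p = 4.80e-05). With itaconate present 6 rose and 6 fell, including Dpp4 at 0.41, Orm2 at 0.43, Manf at -0.42 and Enho at -0.36, and without the letter 3 rose and 2 fell. Enho passed in 9 of 15 alternatives, with an adjusted p of 0.181 without the letter.

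The integrated stress response list holds Atf4 and, like Fgf21, Gdf15 and Inhbe, genes on which ATF4 acts. It had 9 of 20 higher and 1 lower with lipid, at a median of 0.19, where 23.8% of all genes were higher and 23.7% lower. The 10 called in all are close to the 47.5% of all genes. The transcription factor genes Atf4 (0.01, adjusted p = 0.846), Atf5 (-0.07, 0.360), Ddit3 (0.07, 0.550) and Atf3 (-0.09, 0.377) did not pass. Mthfd2 (0.74, SE 0.092, adjusted p = 1.19e-05) and Phgdh (0.55, adjusted p = 0.0155) are enzymes of one-carbon and serine metabolism, and Chac1 (0.74, SE 0.14, adjusted p = 4.40e-04) degrades glutathione. Cebpb fell by 0.18 on the log2 scale (adjusted p = 0.0374). Without the letter in the model 6 rose and 0 fell, with Phgdh (0.202) and Cebpb (0.173) among those lost. In itaconate-treated cells 7 rose and 3 fell with lipid, at a median of 0.05, with Nupr1 and Mthfd2 at 0.45, Asns at 0.31, Atf3 at -0.46, Ppp1r15a at -0.23 and Cebpb at -0.18. Cebpb passed there in 8 of 15 alternatives, with an adjusted p of 0.195 without the letter. Asns, the asparagine synthetase, fell by 0.37 with itaconate on top of lipid (adjusted p = 0.0429), but passed in 5 of 15 alternatives, with adjusted p from 2.38e-06 to 0.273.

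Among PPAR alpha targets, to which Angptl4 and Fgf21 also belong, 12 of 17 were lower and 2 higher with lipid, at a median of -0.35, where 23.7% of all genes were lower and 23.8% higher. Without the letter in the model 9 were lower and 1 higher. Pdk4, the brake on pyruvate oxidation, fell by 1.34 on the log2 scale (SE 0.087, adjusted p = 1.58e-08), the lipid droplet protein Plin2 by 0.85 (adjusted p = 1.11e-06) and the peroxisomal enzyme Ehhadh by 0.79 (adjusted p = 2.83e-06). Creb3l3, a liver transcription factor, rose by 1.06 (SE 0.036, adjusted p = 3.10e-11) and Acadm by 0.16 (adjusted p = 0.00893, or 0.105 without the letter). With itaconate present 1 rose and 13 fell, at a median of -0.42, with Creb3l3 at 0.95, Pdk4 at -1.09, Ehhadh at -0.65 and Plin2 at -0.63. Itaconate on top of lipid gave Pdk4 at 0.47 (adjusted p = 0.0122) and Creb3l3 at -0.40 (adjusted p = 6.77e-05), and without the letter in the model their adjusted p were 0.276 and 0.120. Creb3l3 also fell by 0.29 with itaconate alone (adjusted p = 3.43e-04, or 0.178 without the letter).

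Lipogenic and LXR targets, which include genes that respond to insulin as Angptl8 does, had 4 of 16 higher and 6 lower with lipid, at a median of -0.05. Txnip rose by 2.44 (SE 0.17, adjusted p = 3.03e-08), Acaca, which makes malonyl-CoA, by 1.39 (SE 0.10, adjusted p = 6.65e-08) and Pklr by 0.45 (adjusted p = 0.0150). Srebf1, the regulator of lipogenesis, fell by 0.67 on the log2 scale (adjusted p = 1.31e-06), and Fasn (adjusted p = 4.80e-05) and Scd1 (adjusted p = 0.00513) each by 0.29. Without the letter in the model 2 rose and 4 fell, and Scd1 (0.449) and Pklr (0.159) were among those lost. With itaconate present 3 rose and 7 fell, with Txnip at 1.53, Acaca at 0.82, Lpcat3 at 0.42, Srebf1 at -0.55, and Fasn and Abca1 at -0.36. Acaca (-0.48, adjusted p = 0.0221), Acly (-0.26, adjusted p = 0.0278) and Pklr (-0.57, adjusted p = 0.0427) were lower with itaconate on top of lipid, and they passed in 10, 8 and 8 of 15 alternatives, none of them without the letter in the model, at 0.159, 0.232 and 0.390.

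Itaconate alone called 2 genes of the 7 lists, in a comparison where 4.91% of all genes tested passed. They were Creb3l3, 1 of 17 PPAR alpha targets, and Slc7a11, 1 of 20 integrated stress response genes. No gene of the other lists passed. The cystine transporter gene Slc7a11 fell by 0.26 on the log2 scale (SE 0.064, adjusted p = 0.0317). Slc7a11 passed in 8 of 15 alternatives, with adjusted p from 0.00103 to 0.527.

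**Figure D5:**
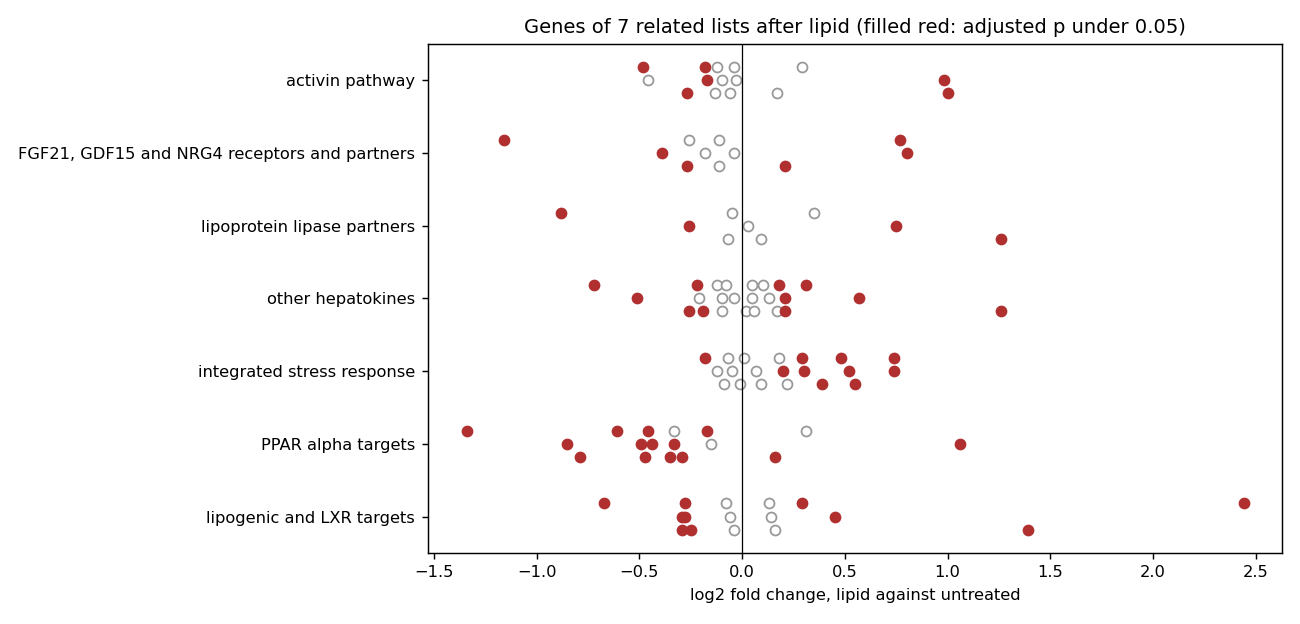
Log2 fold change with lipid against untreated for each tested gene of the 7 lists, one point per gene, filled where the adjusted p was under 0.05. The PPAR alpha targets have 12 filled points below 0 and 2 above, and the integrated stress response genes have 9 above and 1 below.

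In bulk RNA, fewer cells of a type and less RNA per cell cannot be told apart, so markers of other liver cells were measured beside the members. The summed level of 6 cholangiocyte markers was 600 to 1170 CPM in untreated, 573 to 1050 in itaconate, 336 to 609 in lipid and 356 to 646 in lipid + itaconate libraries. The sum was thus lower with lipid. Its mean was 848 CPM in untreated, 761 CPM in itaconate, 467 CPM in lipid and 493 CPM in lipid + itaconate libraries. Nearly all of it was Spp1 and Sox9, while Krt19 averaged at most 0.317 CPM in any group, Krt7 at most 0.00963, and Cftr was at 0. The 8 macrophage markers summed to 181 to 288, 159 to 244, 232 to 327 and 215 to 319 CPM in untreated, itaconate, lipid and lipid + itaconate libraries, mostly Cd68. With lipid 1 of 7 macrophage markers tested rose, Cd68 (log2 fold change 0.43, adjusted p = 5.36e-06), and 3 fell, where 47.5% of all genes passed. With lipid in itaconate-treated cells Cd68 again rose (0.58, adjusted p = 4.37e-07) and 6 fell, where 47.0% of all genes passed. Marco, 1 of those that fell, averaged 12.8 CPM with itaconate and 5.61 CPM with both. Itaconate alone called Lyz2 at 0.50 (adjusted p = 0.0166) and Cd68 at -0.24 (adjusted p = 0.0108), where 4.91% of all genes passed. The part of other liver cells in the members' changes was not tested. The summed level of 9 stellate cell markers stayed between 16.3 and 25.6 CPM, nearly all of it Reln, with Acta2, Col1a1 and Col1a2 at 0.0490 CPM or less. The 7 endothelial markers summed to 11.6 to 23.4 CPM, and the mesothelial markers were at 0.0865 CPM or less.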

How the data were processed

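Poly(A) RNA of 16 mouse hepatocyte libraries was sequenced from a stranded library kit. The authors trimmed reads with cutadapt 1.18, aligned them to mm10 with STAR 2.7.0f and estimated expected counts per gene with RSEM 1.3.1 on GENCODE, and these deposited expected counts were used here. RSEM's strand setting was not given in the sources used here. The counts were rounded (5.41% of values were not whole, none of them in a member). edgeR 4.0.16 in R 4.3.3 fitted treatment and replicate letter to the 11675 genes averaging 1 CPM or more, with TMM scaling, the quasi-likelihood test and Benjamini-Hochberg adjustment at 0.05. The letters pair the samples: the 24 same-letter correlations of deviations from group means ran from 0.143 to 0.468, and the 72 others had a median of -0.114. TPM used the exon length of GENCODE M21, whose gene IDs matched all 55450 genes. CPM used TMM-scaled totals.

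The members and lists were chosen with earlier results of these data known. Named were all 8 members, up to 3 rises and 3 falls per list and comparison among called genes, and the 3 genes most correlated with each tested member, and 2 list genes under this rule are not reported here. Alternatives were no letter in the model, RLE scaling, limma-trend (limma 3.58.1), DESeq2 1.42.0, other filters, the libraries of a comparison alone and leaving out each library. The fit was also run on simulated counts, for lipid against untreated only. Those counts held no difference between letters, so that run does not test how the fit handles the letters. Sequences came from RefSeq.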

Additional observations from a re-analysis of the deposited data

Results flagged for a closer look

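The level of Fgf21 in lipid + itaconate replicate B was 1.50 CPM, while the other 3 libraries of that group held 0.847 to 0.899 CPM. Its gap to the nearest of them was 0.920 of the group's whole range, past Dixon's 95% critical value for 4 samples. It was the only 1 of 32 groups examined, 8 genes in 4 treatments, to lie past that value, and chance puts about 5% of groups past it. The value rests on 39 reads, and the same library stood apart from its group over all genes.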

How the results depend on the processing

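Over 651 values of members under an alternative, 603 kept their direction and their side of the threshold, 14 lost the call, 11 gained it and 23 changed sign, all of these last with a main value between -0.20 and 0.04. With lipid against untreated 5 to 7 members passed under every alternative. Without the replicate block 0 members passed in both itaconate comparisons and 4 in lipid + itaconate against itaconate. With no filter 3 passed in each itaconate comparison and 2 in the interaction, on the libraries of the comparison alone 3 passed for itaconate against untreated, and DESeq2 called 1 in the interaction. The cause was not tested. Apart from 22.4% for lipid against untreated with no filter, the share of all genes passing under alternatives is not given here. The other member counts cannot be set against it. Leaving out each library gave 0 to 1 members for itaconate against untreated, 1 to 2 for lipid + itaconate against lipid and 6 to 7 for lipid + itaconate against itaconate.

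Signs changed as follows. Angptl8 for lipid + itaconate against lipid was 0.08 without the replicate block and ran from -0.21 to 0.21 over left-out libraries. Gdf15 for lipid against untreated was 0.0046 with no filter and ran from -0.06 to 0.05. The interaction of Inhba was -0.00067 with no filter and ran from -0.09 to 0.08. Over left-out libraries Inhba ran from -0.05 to 0.08 with itaconate alone and from -0.05 to 0.11 with itaconate on lipid, and Inhbe from -0.43 to 0.04 with itaconate alone. Of 1170 values of named list genes under alternatives added after seeing the data, 1056 kept their call and 114 lost it, and without the replicate block 23 of 78 lost it. Depth limits Fgf21 most, at 11 to 48 reads per library.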
